A study of Mus musculus with 6 samples.

Results

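The ATP-binding cassette (ABC) transporter genes were examined in hematopoietic stem cells (HSCs) sorted from the bone marrow of Merit40-/- and wild-type (WT) mice. Genes were taken as members when their Entrez number mapped to a symbol of the form Abca to Abcg followed by a number, which gave 48 of the 23185 named genes on the array. The members span 7 subfamilies, A to G. The study used 3 arrays of Merit40-/- cells and 3 arrays of WT cells, all from young mice and all freshly isolated as CD150+CD48- cells of the LSK gate, the marrow fraction that lacks lineage markers and carries Sca-1 and Kit. Merit40, encoded by Babam1, is a subunit shared by the BRISC and BRCA1-A deubiquitinase complexes. The labels describe the replicates as biological but give no strain, sex, number of mice per array or design of the deleted allele, so p-values measure the spread between these arrays.

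ABC proteins use ATP to move lipids, drugs, peptides, metal-containing cofactors and conjugates across membranes. In blood stem cells they are best known for the side population, the cells that stay dim because they pump out the dye Hoechst. Abcg2 is the pump behind that property in mouse marrow, and the P-glycoproteins encoded by Abcb1a and Abcb1b export many of the same drugs. Other members export cholesterol, serve mitochondria and peroxisomes, or lack membrane domains altogether and act on ribosomes.

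All values are log2 expression values made by the authors with RMA, 1 per gene and array. The 6 arrays were alike, with Pearson's r of 0.984 to 0.985 among Merit40-/- arrays, 0.987 to 0.988 among WT arrays and 0.985 to 0.988 across genotypes (over genes, which are not independent replicates). The deleted gene Babam1 read 4.29, 3.87 and 4.01 on the Merit40-/- arrays, against 7.91, 8.04 and 8.05 on the WT arrays, and was lower by a difference of -3.94 (SE 0.14, adjusted p = 5.04e-05 in limma). Of 12 listed stem cell markers 10 were measured, and all 10 averaged in both genotypes above 4.58, a mark of low signal taken from chemosensory receptor genes. Their list mean ran from 8.21 to 8.42 in Merit40-/- and from 8.04 to 8.30 in WT, with Kit at 11.06 and 10.96 and Slamf1 (CD150) at 8.23 and 8.05. The 10 genes, and so the list mean, include Flt3, at 6.87 in Merit40-/- and 6.72 in WT, and Cd34, at 10.22 and 10.06. They also include Cd48, whose protein was selected against, at 5.39 and 5.42. Lying above the low-signal mark was not particular to this list. All 7 measured granulocyte and monocyte genes did so in both genotypes, as did all 6 megakaryocyte and platelet genes. The granulocyte and monocyte list mean ran from 8.82 to 9.29 in Merit40-/- and from 8.77 to 9.15 in WT. A set of 10 skeletal muscle genes averaged 8.54 on Merit40-/- replicate 1, against 4.65 and 4.87 on the other Merit40-/- arrays and 4.52 to 4.68 on the WT arrays, and all 10 were highest there. A set of 7 osteoclast genes averaged 5.53 on Merit40-/- replicate 3, against 4.16 and 4.20 on the other Merit40-/- arrays and 4.0 to 4.16 on the WT arrays, and 5 of the 7 were highest there. On that array Ctsk, Acp5, Mmp9 and Ocstamp were above the mark, while Atp6v0d2 at 4.05, Dcstamp at 3.58 and the calcitonin receptor gene Calcr at 3.51 were below it. Acp5, Mmp9 and Ocstamp were also above the mark on the other Merit40-/- arrays and in the WT mean, and Ctsk was not.

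No ABC transporter gene passed the test between genotypes. In limma, 0 of the 48 members had an adjusted p under 0.05, where 1 of all 23185 genes did (0.00431%), and the smallest adjusted p of any member was 0.999. At an unadjusted p under 0.05 there were 2 members, Abca4 and Abcg3, or 4.17% of them, against 4.22% of all genes. Without WT replicate 2 there were 0 such members, where 1001 of all 23185 genes were past that level. Without Merit40-/- replicate 2 the members past it were Abca8b, Abcb1b and Abcg4. Without Merit40-/- replicate 3 they were Abca4, Abca5 and Abcb10. The share of all genes is not given for the settings without a Merit40-/- array, so these names are not read as a result about the members. The differences, Merit40-/- minus WT, ran from -0.45 to 0.35 with a median of 0.018, beside a median of 0.0052 over all named genes. They were positive for 27 members and negative for 21. For 3 members every Merit40-/- array lay on the same side of every WT array, which is 6.25% of them, against 9.05% of all genes. Which share was larger depended on the setting: with the arrays centred on their medians 5 members (10.4%) did not overlap, against 9.0% of all genes, and without Merit40-/- replicate 3 there were 12 members (25%), against 19.5%. The comparison did bound the differences: for all 48 members the 95% interval lay within a 2-fold change, and for 41 within a 1.5-fold change. Over all 23185 genes the counts were 22339 and 16968. The 1.5-fold bound held for 21 of the 27 members above the low-signal mark in WT and for 20 of the 21 others. Of the 3 side population pumps 1 met it. The scale compresses changes of dim genes.

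**Figure D1:**
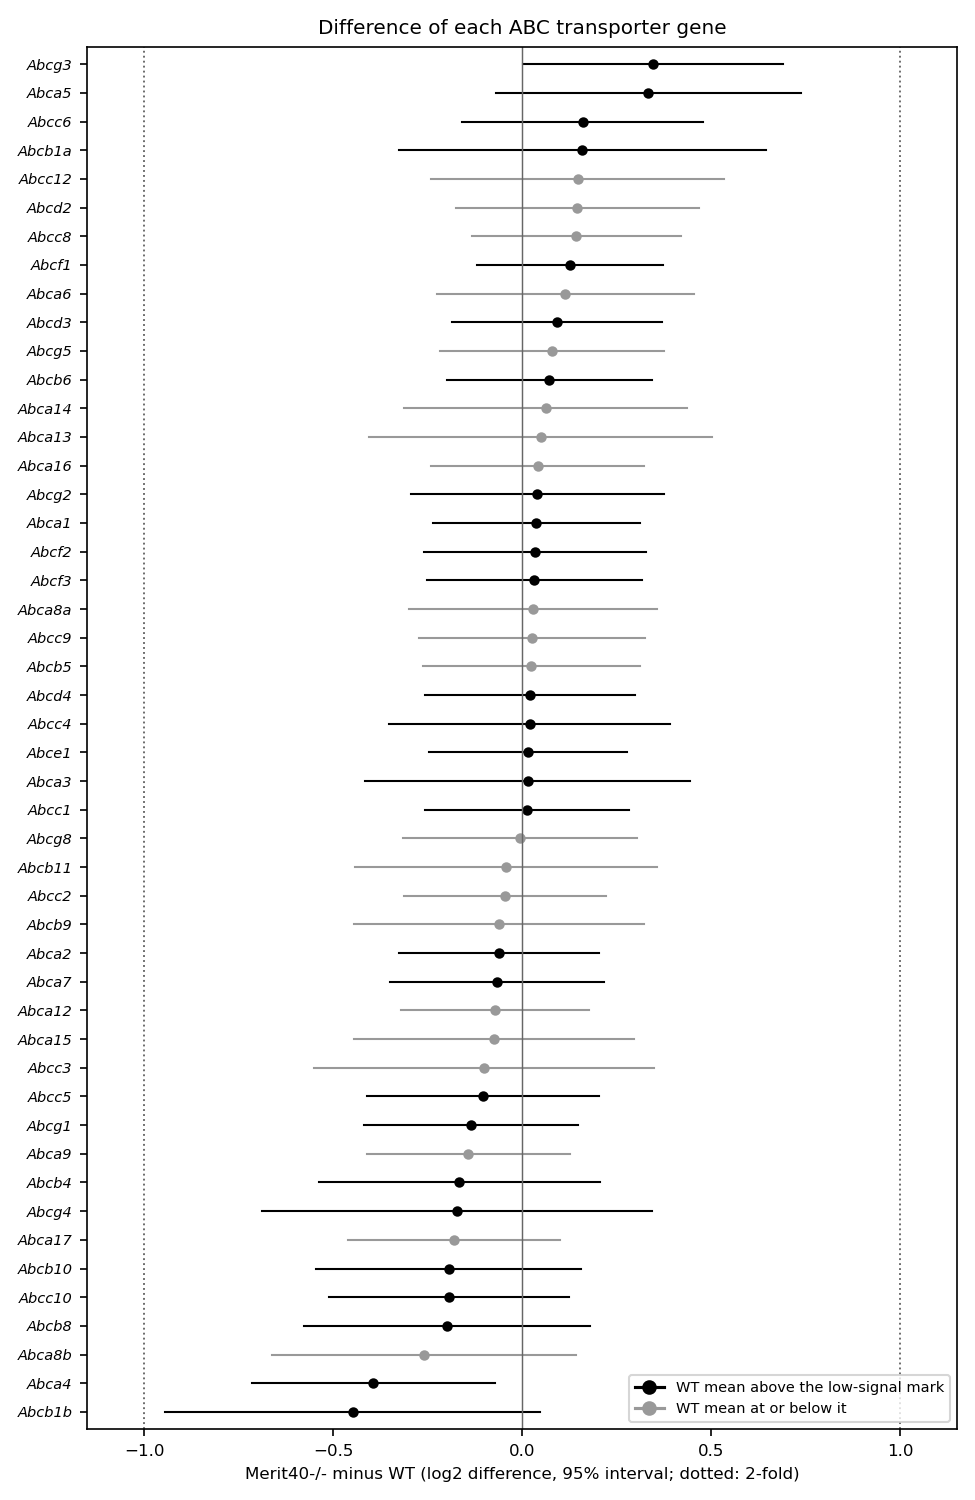
Difference of each ABC transporter gene (Merit40-/- minus WT, log2 scale) with its 95% interval from limma, ordered by size. Black points are genes whose WT mean lay above the low-signal mark and grey points those at or below it. Every interval lies inside the dotted lines that mark a 2-fold change, and the differences run from -0.45 for Abcb1b to 0.35 for Abcg3.

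Whether a gene was read above background was judged against 1389 olfactory, vomeronasal and taste receptor genes, which blood stem cells are not known to express. The 95th percentile of their WT means, 4.58, served as the mark of low signal. Levels of different probe sets depend on the probes and are set against this mark alone, not against each other. By this measure 27 of the 48 members (56.25%) lay above the mark in WT, and the same number did in Merit40-/-. Over all named genes the share was 54.6% in WT. That set includes the chemosensory receptor genes, most of which lie below the mark by its definition. Without them the share was 57.8%. The nearest members were Abcb9 at 4.51 and Abcc3 at 4.42 just below the mark, and Abcg4 at 4.80 and Abcc6 at 4.89 just above it. With the 99th percentile of the receptor genes as the mark, 6.32, the count in WT was 17.

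**Figure D2:**
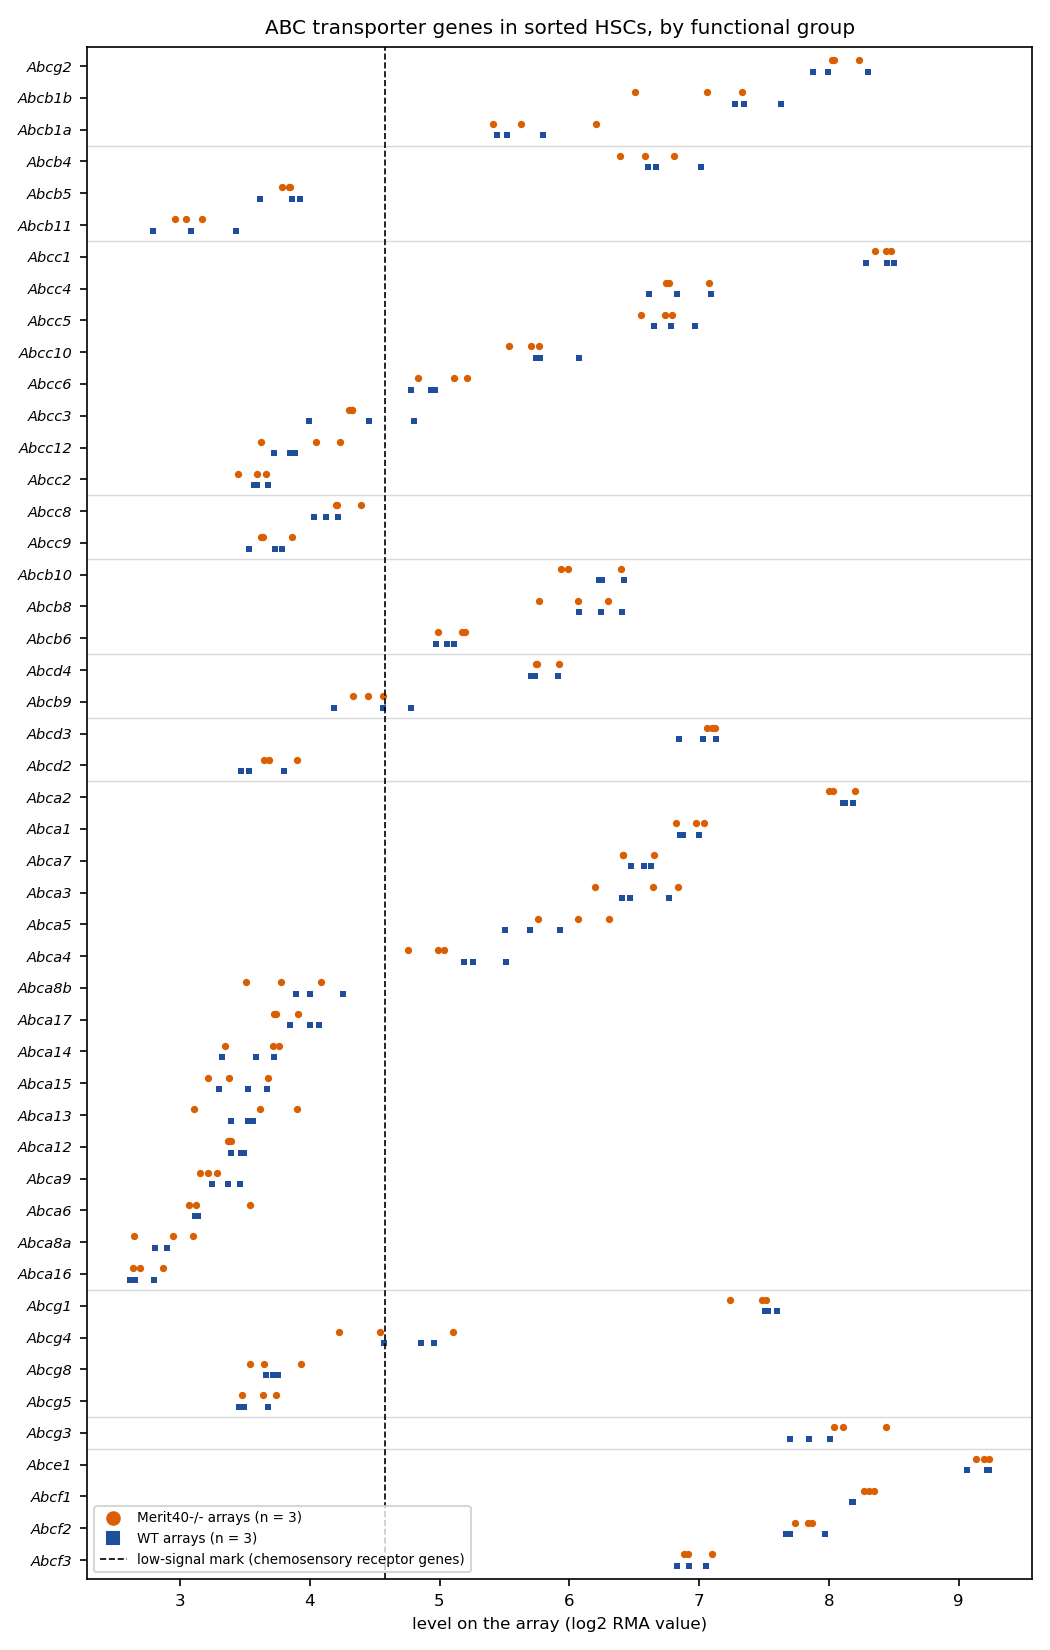
Level of the 48 ABC transporter genes on each array (log2 RMA value), grouped by function, with the 3 Merit40-/- arrays as circles above the 3 WT arrays as squares. The dashed line is the low-signal mark of 4.58. In WT, 27 genes average to the right of the line and 21 to its left.

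The side population pumps were all read above the mark in both genotypes, though Abcb1a, at 5.59 in WT, lay below the 99th percentile mark of 6.32. Abcg2 read 8.23, 8.03 and 8.04 on the Merit40-/- arrays, against 7.99, 8.30 and 7.88 on the WT arrays. The arrays overlapped fully, and the Merit40-/- values lay within the WT range. Abcg2 averaged 8.10 ± 0.11 in Merit40-/- and 8.06 ± 0.22 in WT (SD, n = 3 each). The difference was 0.040 with a 95% interval from -0.29 to 0.37 (SE 0.15, adjusted p = 0.999 in limma), and an exact 2-sided permutation test gave p = 0.8. With 3 arrays against 3 that test cannot give less than 0.1.

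Abcb1b, which encodes a P-glycoprotein, had the most negative difference of all members. It read 7.06, 7.33 and 6.51 on the Merit40-/- arrays, against 7.34, 7.63 and 7.27 on the WT arrays. Merit40-/- replicate 3 was the lowest, and the genotypes overlapped because replicate 2 lay above the lowest WT array. The means were 6.97 ± 0.42 in Merit40-/- and 7.42 ± 0.19 in WT (SD, n = 3 each). The difference of -0.45 (SE 0.22) had a 95% interval from -0.94 to 0.047 and an adjusted p of 0.999 in limma, with p = 0.2 in the exact 2-sided permutation test. Without Merit40-/- replicate 3, the array with raised osteoclast genes, the difference was -0.22, and without Merit40-/- replicate 2 it was -0.63. The part of osteoclast RNA in the low reading was not tested. In sorted bulk cells, fewer cells expressing a gene and less RNA per cell cannot be told apart.

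Abcb1a, the neighbouring P-glycoprotein gene, had a positive difference where that of Abcb1b was negative, with intervals that overlap, and the genes were not tested against each other. It read 5.63, 6.20 and 5.41 on the Merit40-/- arrays, against 5.80, 5.44 and 5.52 on the WT arrays. Here Merit40-/- replicate 2 was the highest array and Merit40-/- replicate 3 the lowest, so the Merit40-/- values lay on both sides of the WT values. The 3 Merit40-/- arrays stood in the same order in both genes, with replicate 2 highest and replicate 3 lowest. The difference was 0.16 (SE 0.21, 95% interval -0.33 to 0.64, adjusted p = 0.999 in limma), and the exact 2-sided permutation test gave p = 0.7. Without Merit40-/- replicate 2 the difference was -0.069, and without Merit40-/- replicate 3 it was 0.33. Abcb1a and Abcb1b are close copies that lie next to each other on chromosome 5 in the RefSeq annotation of GRCm38.p6, and probes shared between them could mix their signals, which was not tested.

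The windows upstream of these 3 pump genes are shown because the genes share a function in drug efflux but start from unlike sequence. Each is the 250 bases before an annotated start, from RefSeq on build GRCm38.p6, plus strand, 5′ to 3′, with CG dinucleotides in capitals. Abcg2 has 3 annotated starts, and its value on the array does not tell which of them was used.
Abcg2 start 1, chr6:58584283-58584532: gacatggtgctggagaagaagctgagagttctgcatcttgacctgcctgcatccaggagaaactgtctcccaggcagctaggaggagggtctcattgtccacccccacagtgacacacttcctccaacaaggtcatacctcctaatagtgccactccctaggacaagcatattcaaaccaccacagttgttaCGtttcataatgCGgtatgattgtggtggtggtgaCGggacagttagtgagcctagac
Abcg2 start 2, chr6:58596422-58596671: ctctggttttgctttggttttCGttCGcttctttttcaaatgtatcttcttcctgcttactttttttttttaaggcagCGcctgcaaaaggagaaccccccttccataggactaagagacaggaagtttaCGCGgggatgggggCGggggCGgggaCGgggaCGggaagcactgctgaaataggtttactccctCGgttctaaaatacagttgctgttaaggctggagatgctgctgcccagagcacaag
Abcg2 start 3, chr6:58640296-58640545: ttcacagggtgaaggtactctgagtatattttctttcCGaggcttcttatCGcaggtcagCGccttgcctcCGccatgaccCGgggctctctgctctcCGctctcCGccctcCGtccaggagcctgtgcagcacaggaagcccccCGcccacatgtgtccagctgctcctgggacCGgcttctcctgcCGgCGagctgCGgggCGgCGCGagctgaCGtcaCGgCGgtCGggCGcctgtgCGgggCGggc
Abcb1a, chr5:8566841-8567090: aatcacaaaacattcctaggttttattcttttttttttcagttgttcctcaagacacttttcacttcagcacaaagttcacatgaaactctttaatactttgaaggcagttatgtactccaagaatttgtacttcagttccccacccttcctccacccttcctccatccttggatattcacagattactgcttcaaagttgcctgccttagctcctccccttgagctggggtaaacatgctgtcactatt
Abcb1b, chr5:8797897-8798146: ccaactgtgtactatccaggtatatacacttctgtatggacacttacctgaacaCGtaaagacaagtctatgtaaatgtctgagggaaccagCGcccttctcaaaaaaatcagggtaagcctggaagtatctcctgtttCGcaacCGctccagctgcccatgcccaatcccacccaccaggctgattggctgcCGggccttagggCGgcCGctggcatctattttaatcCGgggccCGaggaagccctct

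The window of Abcb1a held 0 CG dinucleotides and that of Abcb1b held 9. Before the starts of Abcg2 there were 3, 10 and 23, in order along the chromosome. The motif GGGCGG, which contains a CG and was searched on both strands, was found before starts 2 and 3 of Abcg2 and before Abcb1b, and it occurs in 32.7% of all 32851 windows of this length. CCAAT, searched on both strands, was found before Abcb1b alone among these windows and occurs in 33.8% of all windows. TATAAA on the coding strand was found in none of them and occurs in 7.59% of all windows. These matches describe the letters and were not tested for binding.

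Among the members with an upstream window, CpG content differed with the level on the array, in a description made after the values were seen. A window was found for 38 members, of which 21 lay above the mark in WT and 17 at or below it. The ratio of observed to expected CpG, averaged over the starts of a gene, had a median of 0.73 for the members above the mark and 0.35 for those at or below it, beside 0.38 for all 27025 genes with a window. A ratio of at least 0.6 was found for 14 of the 21 members above the mark, against 4 of the 17 at or below it and 33.6% of all genes. The set of all genes was not split at the mark, so whether the difference is particular to this family was not tested. Abcb1a had the lowest ratio of the members above the mark, 0, and Abcg2 at 0.55 and Abcb1b at 0.53 lay between both medians. Abca14, a member read below the mark, had the highest ratio of that class, 0.90. Array signal also varies with the base composition of the probes, whose part was not tested.

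**Figure D3:**
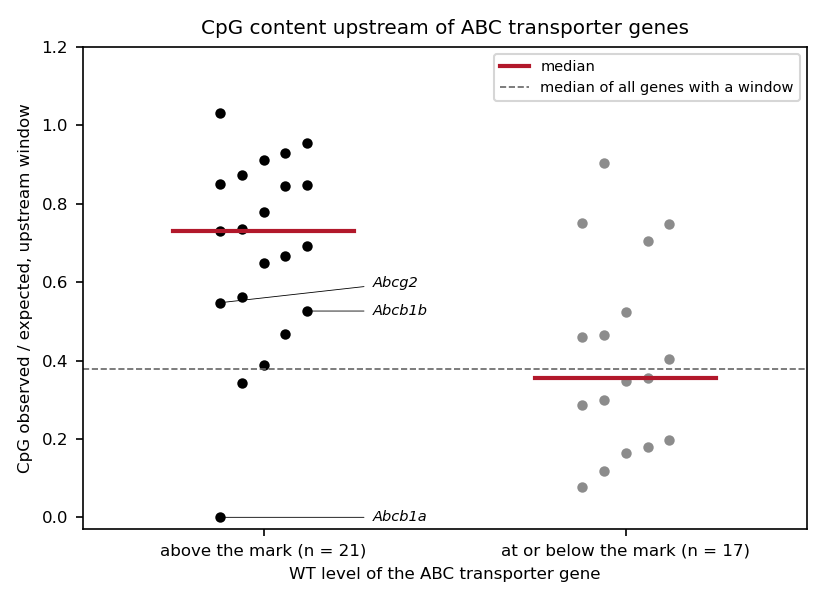
Ratio of observed to expected CpG in the 250 bases before the annotated start, for ABC transporter genes with a WT mean above the low-signal mark (21 genes) and at or below it (17 genes). Points are genes, red lines are class medians (0.73 and 0.35), and the dashed line is the median of all genes with a window (0.38). The 3 side population pumps are named.

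Of the other P-glycoprotein relatives, Abcb4 alone was read above the mark. Abcb4, the phosphatidylcholine transporter of bile, follows Abcb1a and Abcb1b on chromosome 5. It read 6.81, 6.39 and 6.58 on the Merit40-/- arrays, against 7.01, 6.67 and 6.60 on the WT arrays, and the genotypes overlapped. Its difference was -0.17 (SE 0.16), which was -0.040 without WT replicate 1 and -0.27 without Merit40-/- replicate 1. Abcb5, a P-glycoprotein relative, read 3.84, 3.79 and 3.85 on the Merit40-/- arrays, against 3.93, 3.62 and 3.86 on the WT arrays, with overlap and below the mark. The bile salt export pump gene Abcb11 averaged 3.06 in Merit40-/- and 3.10 in WT, also below it.

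The C subfamily holds the multidrug resistance proteins, which export glutathione and other conjugates, and the sulfonylurea receptors, which regulate potassium channels. Of the 8 multidrug resistance genes, 5 were read above the mark in both genotypes, and 0 passed the test. Abcc1, which exports glutathione conjugates and leukotrienes, read 8.47, 8.36 and 8.44 on the Merit40-/- arrays, against 8.50, 8.28 and 8.45 on the WT arrays. All Merit40-/- values lay within the WT range, and the difference was 0.012 (SE 0.12, 95% interval -0.26 to 0.28). Abcc4, a pump for cyclic nucleotides and prostaglandins that is also found in platelets, averaged 6.87 in Merit40-/- and 6.85 in WT. Its difference was 0.020, and it ran from -0.095 to 0.14 with 1 array left out. A set of 6 megakaryocyte and platelet genes averaged 7.53 to 7.71 over the Merit40-/- arrays and 7.86 to 8.09 over the WT arrays, although Gp9 and Vwf of that set had positive differences of 0.088 and 0.14. The part of platelet RNA in the Abcc4 value was not tested. Abcc5, also a cyclic nucleotide pump, averaged 6.70 in Merit40-/- and 6.80 in WT.

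The extremes of this group were Abcc10 and Abcc6, and neither passed the test. Abcc10, which transports lipophilic drugs, read 5.54, 5.77 and 5.71 in Merit40-/-, against 5.77, 5.74 and 6.08 in WT, a difference of -0.19 (SE 0.14). Abcc6, which mediates ATP release from the liver, read 4.83, 5.21 and 5.11 in Merit40-/-, against 4.93, 4.78 and 4.97 in WT, a difference of 0.16 (SE 0.14). In both genes the arrays of the genotypes overlapped. Abcc2, Abcc3 and Abcc12 averaged 3.57, 4.32 and 3.97 in Merit40-/- and 3.61, 4.42 and 3.82 in WT, below the mark. Among these, Abcc3 was scattered in WT, where replicate 3 read 4.80 and replicate 2 read 3.99. The sulfonylurea receptor genes lay below the mark too. Abcc8 read 4.20, 4.39 and 4.21 in Merit40-/-, against 4.22, 4.03 and 4.12 in WT, a difference of 0.14 (SE 0.12). Abcc9 read 3.87, 3.64 and 3.62 in Merit40-/-, against 3.73, 3.53 and 3.79 in WT, a difference of 0.026 (SE 0.13). In both receptor genes the genotypes overlapped.

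The B subfamily genes linked to mitochondria and haem were all read above the mark. In WT all of them averaged below the 99th percentile mark of 6.32. Abcb10, a protein of the inner mitochondrial membrane needed for haem synthesis in red cell precursors, read 5.99, 5.94 and 6.40 on the Merit40-/- arrays, against 6.42, 6.23 and 6.25 on the WT arrays. Merit40-/- replicates 1 and 2 lay below all WT arrays and replicate 3 lay within the WT range, and the difference was -0.19 (SE 0.15). It was -0.34 without Merit40-/- replicate 3 and -0.11 without Merit40-/- replicate 2. The mean of a set of 6 erythroid genes was also lower on every Merit40-/- array, at 6.26 to 6.49 over the Merit40-/- arrays and 6.59 to 7.19 over the WT arrays, and its part in the Abcb10 value was not tested. Abcb8, also mitochondrial, read 6.06, 6.29 and 5.77 in Merit40-/-, against 6.24, 6.07 and 6.40 in WT, a difference of -0.20 (SE 0.16) that was -0.061 without Merit40-/- replicate 3 and -0.33 without Merit40-/- replicate 2. Abcb6, linked to porphyrin transport, read 5.19, 5.17 and 4.99 in Merit40-/-, against 5.11, 5.06 and 4.97 in WT, a difference of 0.071 (SE 0.12). The genotypes overlapped in both genes.

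Of the genes for haem and iron-sulfur cluster synthesis, 13 were measured, 7 of them higher and 6 lower, with a median difference of 0.029 and 0 past the test. Cpox, an enzyme of haem synthesis, had the highest difference. It read 6.69, 7.22 and 7.26 on the Merit40-/- arrays, against 6.45, 6.58 and 6.50 on the WT arrays, without overlap, and differed by 0.54 (SE 0.17, adjusted p = 0.999 in limma). Slc25a38, a mitochondrial carrier needed for haem synthesis, had the lowest, -0.21 (SE 0.30).

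Of the 2 lysosomal and 2 peroxisomal transporter genes, 0 passed the test. Abcd4, which exports cobalamin from lysosomes, read 5.75, 5.92 and 5.75 in Merit40-/-, against 5.71, 5.73 and 5.91 in WT, a difference of 0.021 (SE 0.12). Abcb9, a lysosomal peptide transporter, read 4.33, 4.45 and 4.56 in Merit40-/-, against 4.78, 4.56 and 4.19 in WT, so that its means lay just below the mark. Abcd3, an abundant protein of the peroxisomal membrane, read 7.10, 7.12 and 7.06 in Merit40-/-, against 7.03, 6.84 and 7.13 in WT. The Merit40-/- arrays were close together within the WT range, and the difference was 0.092 (SE 0.12), which was 0.014 without WT replicate 2 and 0.15 without WT replicate 3. Abcd2, which carries very-long-chain acyl-CoA, read 3.90, 3.65 and 3.69 in Merit40-/-, against 3.53, 3.81 and 3.47 in WT, all below the mark and overlapping, and differed by 0.15 (SE 0.14). Among 13 measured genes of peroxisomal import and oxidation, 0 passed, 7 were higher and 6 lower, with the racemase gene Amacr highest at 0.22 (SE 0.16) and the import receptor gene Pex5 lowest at -0.33 (SE 0.15).

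The A subfamily moves lipids, and 6 of its 16 members were read above the mark in both genotypes. Abca1, which loads cholesterol onto apolipoprotein and is a target of the oxysterol receptors LXR, read 6.98, 7.04 and 6.82 on the Merit40-/- arrays, against 6.88, 6.85 and 7.0 on the WT arrays. The genotypes overlapped, with a difference of 0.037 (SE 0.12). Abca2, an endosomal lipid transporter known from brain, read 8.20, 8.0 and 8.03 in Merit40-/-, against 8.19, 8.13 and 8.11 in WT, and differed by -0.062 (SE 0.11). Abca3, the lipid transporter of lung surfactant, averaged 6.56 in Merit40-/- and 6.55 in WT, and Abca7, linked to phagocytosis, 6.50 and 6.56.

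Abca4 and Abca5 were the extremes of this subfamily. Abca4, the retinoid transporter of photoreceptors, read 5.04, 4.75 and 4.99 on the Merit40-/- arrays, against 5.19, 5.51 and 5.26 on the WT arrays. All Merit40-/- arrays lay below all WT arrays, as they did for 4.22% of all genes. The difference of -0.39 (SE 0.14) had a 95% interval from -0.72 to -0.072, an unadjusted p of 0.0224 and an adjusted p of 0.999 in limma. Without WT replicate 2, its highest array, the difference was -0.30, and without WT replicate 1 it was -0.46. Abca5, a lysosomal member, read 6.06, 6.30 and 5.76 in Merit40-/-, against 5.93, 5.50 and 5.70 in WT. The genotypes overlapped, and the difference of 0.33 (SE 0.18) was 0.20 without Merit40-/- replicate 2 and 0.47 without Merit40-/- replicate 3.

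The 10 other A members were read at or below the mark, and 7 of them lie in 2 runs of adjacent genes. On chromosome 11, Abca8b, Abca8a, Abca9, Abca6 and Abca5 follow one another with 0 coding genes between neighbours, and of these only Abca5 was above the mark. Abca8b averaged 3.79 in Merit40-/- and 4.05 in WT, Abca8a 2.90 and 2.87, Abca9 3.22 and 3.36, and Abca6 3.24 and 3.13. On chromosome 7, Abca14, Abca15 and Abca16 form the other run, and all averaged below the mark, at 3.61, 3.42 and 2.73 in Merit40-/- and 3.55, 3.50 and 2.69 in WT. Abca17, at 3.79 in Merit40-/- and 3.97 in WT, lies next to Abca3 on chromosome 17. Abca12, the lipid transporter of skin, averaged 3.38 in Merit40-/- and 3.45 in WT, and Abca13 averaged 3.54 and 3.49.

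The sterol exporters of the G subfamily split into genes above and below the mark. Abcg1, which passes cholesterol to high-density lipoprotein and restrains stem and progenitor cell expansion together with Abca1 in mice, read 7.48, 7.24 and 7.51 on the Merit40-/- arrays, against 7.53, 7.60 and 7.50 on the WT arrays. Merit40-/- replicate 2 was the lowest array and the genotypes overlapped, with a difference of -0.13 (SE 0.12) that was -0.048 without that array. Without Merit40-/- replicate 3 the Abcg1 difference was -0.19. Abcg4, a sterol exporter of megakaryocyte progenitors, read 4.23, 5.11 and 4.54 in Merit40-/-, against 4.96, 4.58 and 4.85 in WT. The Merit40-/- arrays thus lay on both sides of the mark, and so did the WT arrays, with WT replicate 2 at 4.575 just below the mark of 4.577. The difference was -0.17 (SE 0.22). Abcg5 and Abcg8, which form the sterol exporter of liver and gut and are neighbours on chromosome 17, lay below the mark. Abcg5 read 3.48, 3.64 and 3.74 in Merit40-/-, against 3.68, 3.49 and 3.45 in WT, and Abcg8 averaged 3.71 in both genotypes.

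Of 12 measured partners in sterol sensing and efflux, 8 were higher and 4 lower, with a median difference of 0.068 and 0 past the test. Npc1, which exports cholesterol from lysosomes, had the highest difference. It read 7.37, 7.18 and 7.10 in Merit40-/-, against 6.66, 6.51 and 7.08 in WT, without overlap, and differed by 0.47 (SE 0.17, adjusted p = 0.999 in limma). Apoe, an apolipoprotein, had the lowest, -0.11 (SE 0.13).

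Abcg3, a rodent gene closely related to Abcg2, had the most positive difference of all members. It read 8.04, 8.11 and 8.44 on the Merit40-/- arrays, against 8.01, 7.85 and 7.70 on the WT arrays. All Merit40-/- arrays lay above all WT arrays, as they did for 4.84% of all genes, although the nearest arrays were 8.04 and 8.01. The difference was 0.35 (SE 0.15), with a 95% interval from 0.0010 to 0.69, an unadjusted p of 0.0495 and an adjusted p of 0.999 in limma. Merit40-/- replicate 3, the array with raised osteoclast genes, was again the farthest array, and without it the difference was 0.22. Without WT replicate 1 the difference was 0.42. The unadjusted p of Abcg3 was above 0.05 in limma under several other settings, among them a replicate block (0.0873), array weights (0.0643) and quantile normalization (0.0592). The part of osteoclast RNA was not tested here either.

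**Figure D4:**
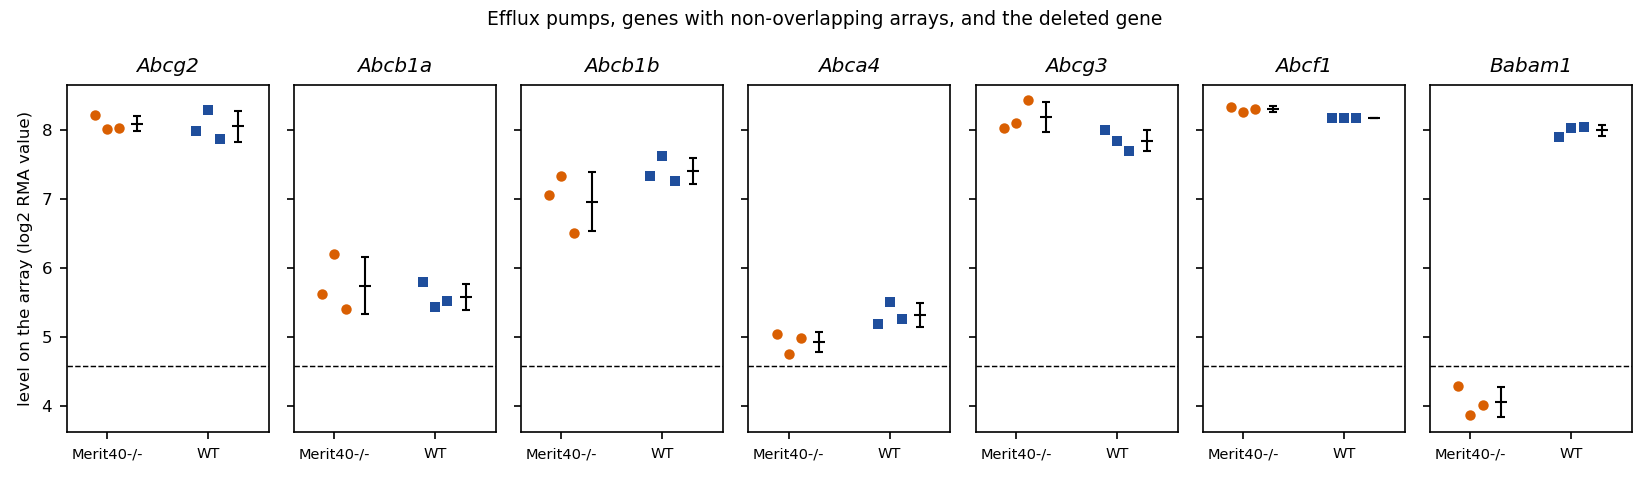
Level on each array (log2 RMA value) of the 3 side population pumps, the 3 members whose arrays did not overlap between genotypes, and Babam1. Circles are Merit40-/- arrays and squares WT arrays in replicate order, with mean and SD beside them (n = 3), and the dashed line is the low-signal mark. Abca4 is lower and Abcg3 and Abcf1 are higher on every Merit40-/- array, by far less than the gap of -3.94 in Babam1.

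The E and F subfamilies lack membrane domains and act on ribosomes and translation. All 4 of their genes were read above the mark, all had positive differences and 0 passed the test. With 1 array left out the sign changed for Abce1, Abcf2 and Abcf3, but not for Abcf1. Abce1, which splits ribosomes after termination, read 9.19, 9.23 and 9.13 on the Merit40-/- arrays, against 9.23, 9.21 and 9.06 on the WT arrays. The genotypes overlapped, with a difference of 0.016 (SE 0.11). Abcf1, a factor of translation initiation, read 8.35, 8.27 and 8.31 in Merit40-/-, against 8.18, 8.18 and 8.19 in WT. These arrays did not overlap, the WT arrays had an SD of only 0.0040 (n = 3), and the difference was 0.13 (SE 0.11, adjusted p = 0.999 in limma). Abcf2 averaged 7.82 in Merit40-/- and 7.78 in WT, and Abcf3 averaged 6.97 and 6.93. Among 11 measured genes of ribosome recycling and rescue, 0 passed, 2 were higher and 9 lower, with a median of -0.080. The termination factor gene Gspt1 was highest at 0.095 (SE 0.20), and Gcn1, a sensor of stalled ribosomes, was lowest at -0.28 (SE 0.14).

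The remaining partner lists held no gene past the test. Of 3 superfamily genes named outside this scheme, the antigen peptide transporter genes Tap1 and Tap2 were above the mark, with differences of -0.029 (SE 0.14) and 0.11 (SE 0.20). Of 10 antigen peptide loading genes, 4 were higher and 6 lower, from Tapbpl at -0.19 to Psmb8 at 0.096. Of 11 xenobiotic and hypoxia regulators, 6 were higher and 5 lower, from Keap1, the sensor of oxidants, at -0.32 (SE 0.16) to Arnt, the partner of the Ah receptor, at 0.20 (SE 0.15). Of 12 glutathione conjugation genes, which supply substrates of the C subfamily pumps, 5 were higher and 7 lower. Within these, 3 of the 12 (25%) did not overlap between genotypes, 2 higher and 1 lower, against 9.05% of all genes. They were Mgst2 at -0.37 (SE 0.15), Gstm1 at 0.42 (SE 0.16) and Gsr at 0.17 (SE 0.12). Gsta4, which overlapped, had the highest difference at 0.45 (SE 0.23). The share of 25% was picked out after the values were seen. It was the largest of the 8 partner lists, and the others ran from 0% to 15.4%. In the other partner lists Tapbpl, Keap1, Pex5, Acox3, Cpox and Npc1 did not overlap either.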

How the data were processed

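Gene expression in sorted HSCs was measured on 6 Affymetrix Mouse Gene arrays. Per the labels' protocols, biotin-labelled cRNA was made from 50 ng of total RNA by the NuGEN Pico method. The deposited values are on the log2 scale. Per the submitters' processing notes the authors used affy and its RMA method, which corrects background, equalises the arrays and so removes overall differences in RNA yield. The sources used here name no version, chip definition or build. Of 25206 probe sets, 23185 had 1 symbol, 0 several and 2021 were unnamed here. All named genes were fitted with limma 3.58.1 in R 4.3.3 (genotype only, 2-sided, Benjamini-Hochberg, threshold 0.05). The procedure was run on simulated data, in a check that required success only for changes far larger than those of the members. The number of arrays limits the precision.

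Members, lists and tests were chosen with earlier results of these data known. Values on every array are given for the side population pumps, members whose arrays did not overlap above the mark, and the highest and lowest difference and highest WT level of each functional group, and for some further members, such as Abca1, chosen after their values were seen. Of each partner list the extremes are named, and Tap2, Tap1, Gstm1, Gsr, Acox3 and the cell type markers come from the lists. Of these, Gstm1, Gsr, Acox3, Gp9, Vwf, Flt3 and Cd34 were named for the values they showed. The muscle, osteoclast, erythroid, platelet and granulocyte lists were picked from 9 marker lists, and in all 9 lists 0 genes passed.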

Additional observations from a re-analysis of the deposited data

How the results depend on the processing

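The count of 0 ABC transporter genes past the threshold held under all alternatives run: a replicate block, trended and robust priors, array weights, 3 scalings, filters on the dimmest 30% and 50%, all probe sets, an unmoderated test, a threshold of 0.10 and each array left out. The unmoderated test called 0 of all genes, with Babam1 at -3.94 and an adjusted p of 0.168. At an unadjusted p under 0.05 it had 2 members, Abca4 and Abcf1, and 990 of all 23185 genes. The other alternatives called 1 gene, and Babam1 ran from -4.06 to -3.85 with 1 array left out. For arrays with the same replicate number, r of the deviations was -0.044, 0.0037 and 0.046. For arrays with different numbers it ran from -0.067 to 0.065. These values cannot show whether the arrays were prepared in pairs. With the numbers as a replicate block 1 gene and 0 members passed. Abca4 and Abcb1b were then at an unadjusted p under 0.05, as were 991 of all 23185 genes. Abcg3 was past that level neither there nor with array weights, 75th percentile centring, quantile normalization or either filter. Centring on array medians gave 5 members without overlap in place of 3 (10.4%, against 9.0% of all genes), and centring on 75th percentiles gave 2 (4.17%, against 8.6%). With 1 array left out that count was 5 to 12 (10.4% to 25%), where 16.9% to 19.6% of all genes did not overlap, and the median of the members was -0.026 to 0.022. Under the stricter mark, 17 members lay above it in WT. With 1 array left out the sign changed for 24 of the 48 members, 9 of the 26 chosen by rule and 15 of the other 22, Abca1, Abca3 and Abcc4 among these. The 9 were Abcg2 (-0.050 to 0.16), Abcb1a (-0.069 to 0.33), Abcb5 (-0.069 to 0.086), Abcb9 (-0.22 to 0.073), Abcc1 (-0.051 to 0.058), Abcc9 (-0.052 to 0.077), Abcd4 (-0.035 to 0.084), Abce1 (-0.037 to 0.047) and Abcg4 (-0.41 to 0.028), none of them past the test.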
